A study of Mus musculus with 6 samples.

Results

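The spleen cells described here were endothelial cells, the lining of the blood vessels, in sections from 2 adult wild-type C57BL/6 mice. Transcripts were imaged in place with the 10x Xenium platform, which detects single RNA molecules with a fixed panel of probes (477 genes) and assigns each molecule to a cell outline. A cell was selected on its measured values: it held at least 4 transcripts of Kdr, Tie1, Clec14a and Gpihbp1 together and fewer than 3 of C1qa, C1qb and C1qc, the complement genes that mark the macrophages of the tissue. By this gate, 2126 of 108338 cells of the untreated spleen and 1331 of 94582 cells of the spleen treated with phenylhydrazine (PHZ) were chosen, 3457 of 202920 cells in all. The whole series held 521938 cells in 6 sections of several blood-forming tissues. PHZ, a drug that destroys red blood cells and so brings on anaemia and red cell production in the spleen, was injected at 40 mg/kg 2 times a day for 2 days. No genetic change was named for either mouse, the sources used here give 2 different ages in months, so none is printed, and each condition was a single 5 µm section. Both sections lay on the same slide and were imaged in the same run. With 1 section per condition there was no test between conditions: the treatment, the mouse and the section cannot be told apart, and the intervals given are 95% intervals that cover counting error only.

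Blood enters the spleen through arteries that run inside the lymphoid white pulp, leaves them through small arterioles and capillaries, and seeps through the open meshwork of the red pulp before it is collected by venous sinuses. Endothelial cells of these segments carry different surface proteins and chemokines. The rule genes are genes of endothelium. Kdr encodes the main receptor for vascular endothelial growth factor, Tie1 a partner of the angiopoietin receptor, and Clec14a a vascular lectin. Gpihbp1 encodes the anchor that holds lipoprotein lipase on the capillary wall, and it was detected in 46.0% of untreated and 62.4% of PHZ members.

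The members were deeper than the other cells, and the gate, which asks for a minimum of raw counts, favours deeper cells. Their median was 124 transcripts in the untreated spleen, against 83 in all other cells, and 134 against 104 in the PHZ-treated spleen. The 2 sections held 10351683 and 11430388 transcripts of panel genes in cells. Of all panel transcripts decoded, 90.5% (untreated) and 70.9% (PHZ) reached a quality score of 20, the limit for the deposited counts. Cell outlines differed more than depth did. The median outline of a member covered 43.1 µm2 in the untreated and 92.9 µm2 in the PHZ-treated section, and that of other cells 35.5 and 52.6 µm2. Nuclei were closer, at 23.8 and 26.7 µm2 in the members. In the members, 58.2% of transcripts lay over the nucleus in the untreated section and 44.0% in the PHZ-treated one. A larger outline can take in transcripts of neighbouring cells, and its part in the values below was not tested. Values from nuclear transcripts are given beside the main ones for some genes only. Between the 2 sections 1 cell identifier was shared.

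The count that set membership was low in most members, with a median of 6 rule gene transcripts (highest 35) in untreated members and of 5 (highest 31) in PHZ members. Exactly 4 transcripts were found in 627 and 419 members. Just outside the limit, 991 untreated and 686 PHZ cells held exactly 3. The cells at 4 carried 22.2 and 23.5 transcripts per cell of 13 other endothelial genes, and the cells at 3 carried 18.6 and 20.3, so the limit cut through a continuous range. A single rule gene accounted for membership in 5.22% of untreated and 9.77% of PHZ members. The C1q limit removed many cells: 1387 of 3513 untreated cells with enough rule transcripts (39.5%) and 814 of 2145 PHZ cells (37.9%) were left out for it. Across each whole section, 36.0% and 35.1% of cells reached that many C1q transcripts. The cells left out carried 28.9 and 34.4 transcripts of the 13 endothelial genes, close to the 29.2 and 29.4 of the members, and had higher medians of 169 and 199 transcripts in all.

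**Figure D1:**
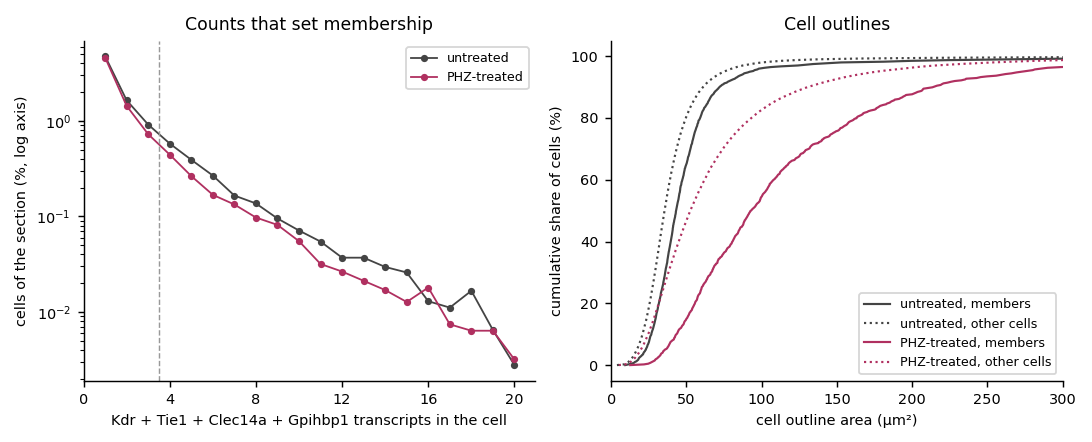
Left, the share of cells of each section (log axis) that held a given number of transcripts of Kdr, Tie1, Clec14a and Gpihbp1, among cells below the C1q limit, with the membership limit as a dashed line. Right, the cumulative share of cells by the area of their outline in µm2, where PHZ-treated members (solid red) had the largest outlines, with a median of 92.9 µm2.

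Genes that the gate did not use followed the label, which is a description, since the gate chose these cells. Of the 13 other endothelial genes, 12 were at least 3-fold higher per cell in the members than in other cells of the untreated section, and 11 in the PHZ section. Over all 201 genes with at least 200 transcripts in the members and outside the gate, 25.4% were that much higher in the untreated section and 21.9% in the PHZ section. Sox17, a transcription factor of arterial endothelium, was 26.1-fold higher in untreated members, Podxl, a sialomucin of the vessel lumen, 20.7-fold, and Cd34, a sialomucin of small vessels, 19.1-fold. AU021092, a gene with little known function, was 22.8-fold higher in untreated and 26.4-fold higher in PHZ members. Levels per cell are not scaled for depth here. The 201 genes together came to 123 per untreated member against 87.2 per other cell, and to 138 against 113 after PHZ. Markers of other cell types differed in both directions. The 4 T cell genes came to 0.876 transcripts per untreated member against 2.48 per other cell, and to 0.173 against 0.525 after PHZ. Genes of the mural cells that wrap vessels were higher in the members than in other cells, at 2.03 against 1.02 per cell and 3.30 against 1.87. Platelet and megakaryocyte genes (Pf4, Ppbp) also were, at 0.918 against 0.535 and 1.34 against 0.551.

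The members made up 1.96% of the cells of the untreated section (interval 1.88 to 2.05) and 1.41% of the PHZ-treated section (1.33 to 1.48). After every cell with at least 50 transcripts was thinned to that number, the shares passing the gate were 0.890% and 0.539%, with the untreated section again the higher. Thinning left out 15.6% of cells in each section. Per area of tissue the difference was wider, with 455 members per mm2 over 4.67 mm2 of untreated tissue and 189 per mm2 over 7.05 mm2 of PHZ tissue. All cells were also sparser after PHZ, at 13406 per mm2 against 23186. In a section, fewer cells of a type and less RNA of the gate's genes per cell cannot be told apart.

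Of the rule genes themselves, Tie1 was detected at 2.33 transcripts per untreated member (2.27 to 2.40) and 2.54 per PHZ member (2.46 to 2.63). Kdr was lower after PHZ, at 1.54 (1.48 to 1.61) against 2.40 (2.34 to 2.47), and so was Clec14a, at 0.319 (0.289 to 0.350) against 0.774 (0.737 to 0.812). Gpihbp1 went the other way, with 2.36 per PHZ member (2.28 to 2.45) and 1.35 per untreated member (1.30 to 1.40). These are values of the genes that chose the cells and support nothing further.

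Gpihbp1 and Ackr3, a scavenging receptor for the chemokine CXCL12, were seldom found together in members of the untreated spleen, and members with only 1 of them are described here as 2 kinds. This split was chosen after the values were seen, uses a gene of the gate and is a description. It leaves 23.2% of untreated and 36.9% of PHZ members in neither kind. In the untreated spleen, 816 members (38.4%, 36.3 to 40.5) held Gpihbp1 and no Ackr3, 817 (38.4%, 36.4 to 40.5) held Ackr3 and no Gpihbp1, 161 (7.57%) held both and 332 (15.6%) neither. Ackr3 was found in 16.5% of the members with Gpihbp1 (14.2 to 19.0) and in 71.1% of those without it (68.4 to 73.7). Detection of the 2 genes correlated at r = -0.55 across the 2126 untreated members, which share 1 section and were chosen on a sum that includes Gpihbp1, so that a cell without Gpihbp1 needed more of the other rule genes. In the PHZ-treated spleen, 476 members (35.8%, 33.2 to 38.4) held Gpihbp1 only, 364 (27.3%, 25 to 29.8) Ackr3 only, 355 (26.7%, 24.3 to 29.1) both and 136 (10.2%) neither, and r was -0.29 over 1331 members. Ackr3 was found in 42.7% of the PHZ members with Gpihbp1 (39.3 to 46.2) and in 72.8% of those without it (68.7 to 76.7). After PHZ the members with both genes were about as many as those with Ackr3 only. Their median outline was 91.0 µm2, against 44.7 µm2 in the untreated section. Since Gpihbp1 chose the cells, nothing is read from the change in these shares. Over the nucleus alone Gpihbp1 was found in 37.6% of untreated and 43.3% of PHZ members.

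**Figure D2:**
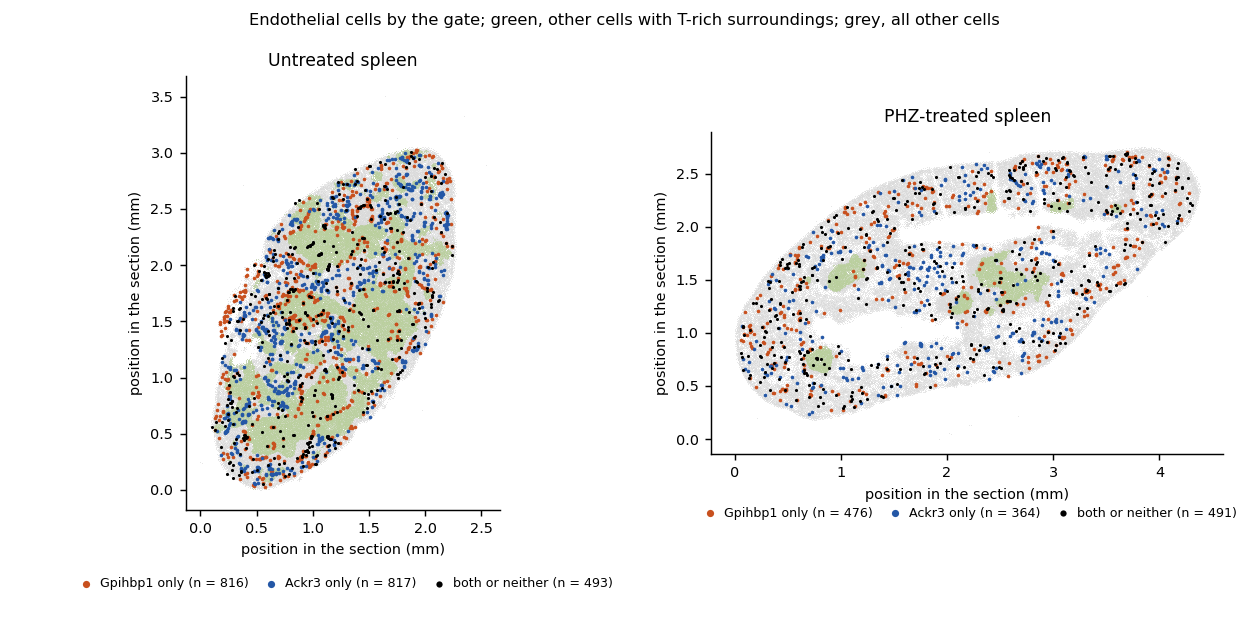
Position of each endothelial cell in the 2 sections (axes in mm): orange, members with Gpihbp1 only (816 and 476); blue, members with Ackr3 only (817 and 364); black, members with both or neither. Green marks other cells with T-rich surroundings and grey all remaining cells; 29.6% of the blue and 36.3% of the orange untreated members lie in T-rich surroundings, and few green areas are seen in the PHZ-treated spleen.

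In the untreated spleen the 2 kinds differed in many other genes. Cxcl10, the interferon-induced chemokine that attracts T and NK cells, was found at 4.61 transcripts per Ackr3-only member (4.47 to 4.76) and at 0.206 per Gpihbp1-only member (0.176 to 0.239), 22.4 times as many. Wnt2, a growth factor known from liver sinusoidal endothelium, stood at 0.312 per Ackr3-only member, 255 transcripts in all, against 1 transcript in 816 Gpihbp1-only members. Ltc4s, the enzyme that makes leukotriene C4, was at 0.498 against 0.0135, and Fxyd6, a regulator of the sodium pump, at 1.56 against 0.0404. Cavin2, a coat protein of caveolae, was at 3.31 against 0.509, Mgll, a lipase that breaks down monoacylglycerols, at 4.11 against 1.25, and Prox1, a transcription factor best known from lymphatic vessels, at 0.619 against 0.219. Lyve1, another gene of lymphatic vessels and sinusoids, was found in 1.41% of all untreated members (0.954 to 2.01).

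The Gpihbp1-only members carried the higher levels of another set of genes. Sox17 stood at 0.521 transcripts per cell (0.472 to 0.573) against 0.0453 (0.0319 to 0.0624) in the Ackr3-only members. Igfbp3, a binding protein for insulin-like growth factors, was at 1.45 against 0.299, and Cd36, the fatty acid receptor of capillaries, at 6.35 against 2.36. Aqp1, a water channel of capillaries and red cells, was at 1.62 against 0.102. Genes of neighbouring cell types also differed between the outlines of the 2 kinds: Cxcl13, the chemokine of B cell follicle stroma, was at 0.991 against 0.0845, and Timd4 and Marco, receptors of tissue and marginal zone macrophages, at 0.537 against 0.0428 and 0.706 against 0.110. Over the nucleus alone Cxcl13 was at 0.504 against 0.0428 and Cxcl10 at 0.115 against 3.06. A fat cell was any cell, members included, with at least 4 transcripts of the fat genes Car3, Retn and Pck1 together. In 112 untreated members, 5.27%, such a cell lay within 100 µm or was the member itself, and 49 of them were Gpihbp1-only. Without them the levels of Cd36 were 5.70 and 2.36, of Sox17 0.532 and 0.0433, and of Cxcl10 0.219 and 4.69. The levels that moved by over 1.5 times among those given here were Ltc4s in the Gpihbp1-only members, at 0.00261 in place of 0.0135, Wnt2 in the same members, at 0 in place of 1 transcript, and Aqp1 in the Ackr3-only members, at 0.0420 in place of 0.102.

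After PHZ, some of these differences were narrower and others wider. Cxcl10 stood at 0.390 transcripts per Ackr3-only member (0.329 to 0.460) and 0.267 per Gpihbp1-only member (0.222 to 0.317), a ratio of 1.46 in place of 22.4. Ltc4s was at 0.0714 against 0.0147 and Wnt2 at 0.0907 against 0 in 476 Gpihbp1-only members (upper limit 0.00775). Of the genes higher in Gpihbp1-only members, Cd36, Aqp1 and Sox17 were closer together after PHZ. Without members near fat they were at 4.33 against 3.70, 2.57 against 0.975 and 0.208 against 0.0496 in the Ackr3-only members. Igfbp3 was further apart, at 2.48 in the Gpihbp1-only (2.34 to 2.63) and 0.121 in the Ackr3-only members (0.0878 to 0.162). Angpt2, the angiopoietin that loosens vessels for sprouting, was at 0.479 (0.419 to 0.545) against 0.0302 (0.0151 to 0.0541), a ratio of 15.9 where the untreated ratio was 1.55. Pdgfb, which recruits pericytes, was at 0.548 against 0.0852. On the other side, Ccl2, the chemokine that attracts monocytes, was found at 0.717 transcripts per Ackr3-only member (0.633 to 0.810) and 0.176 per Gpihbp1-only member (0.141 to 0.218), although each kind held 6 transcripts of it in the untreated spleen. Nts, which encodes the peptide neurotensin, was at 0.242 against 0.0630. Over the nucleus alone, Ccl2 was at 0.426 per Ackr3-only and 0.103 per Gpihbp1-only member, Nts at 0.168 and 0.0357, and Angpt2 at 0.0137 and 0.267.

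**Figure D3:**
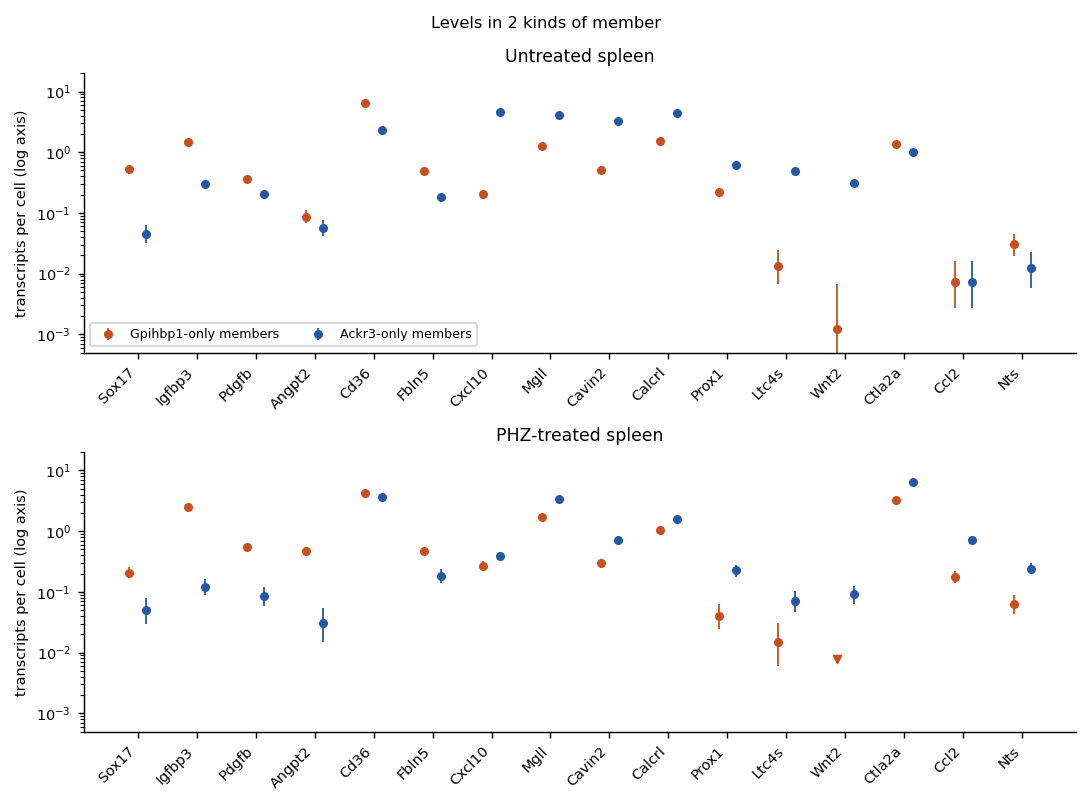
Transcripts per cell (log axis) of 16 genes in the Gpihbp1-only (orange) and Ackr3-only (blue) members of each spleen, with exact Poisson intervals for counting error; the triangle marks the upper limit of a count of 0. Cxcl10 is 22.4 times as high in the blue members of the untreated spleen and 1.46 times after PHZ. Igfbp3, Pdgfb and Angpt2 separate the kinds more after PHZ, and Cd36 and Sox17 less.

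The gate used no positions, but its C1q limit left out cells whose surroundings differed, so the values here depend in part on it. Members lay close to one another: of the cells within 20 µm of a member, 5.46% were members in the untreated spleen and 4.56% in the PHZ-treated spleen, given with no interval since neighbourhoods overlap, against 1.76% and 1.02% around other cells. A transcript spilled between adjacent outlines can add to such a share, and its part was not tested. The median distance to the nearest other member was 10.1 µm in the untreated and 20.5 µm in the PHZ-treated section. Surroundings were called T-rich where at least 20% of the other cells within 50 µm held at least 2 transcripts of the T cell receptor genes Cd3d and Cd3e. This held for 34.4% of untreated members (32.4 to 36.4) against 49.5% of other cells, and for 4.51% of PHZ members (3.46 to 5.76) against 10.6% of other cells. Cells that lie close together share their surroundings, so the intervals of these shares are too narrow.

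The 2 kinds of member had different neighbours, given as transcripts per cell within 20 µm and again with no interval. Around the Gpihbp1-only members of the untreated spleen Cxcl13 stood at 0.830 and around the Ackr3-only members at 0.0710, below the 0.435 around all other cells. Neighbours of the Ackr3-only members held more of the neutrophil genes (0.957 against 0.451), of the megakaryocyte genes (0.965 against 0.409) and of the NK cell genes (0.785 against 0.331). The T-rich share was 36.3% for Gpihbp1-only members (33.0 to 39.7) and 29.6% for Ackr3-only members (26.5 to 32.9). After PHZ, Cxcl13 again stood at 0.415 around the Gpihbp1-only and 0.0780 around the Ackr3-only members, and T-rich surroundings were found for 5.25% (3.43 to 7.66) and 1.10% (0.300 to 2.79). The NK cell genes were then at 0.0608 and 0.0544. Erythroid genes surrounded both kinds, at 34.7 and 32.7 transcripts per neighbouring cell after PHZ against 3.44 and 2.54 in the untreated section. The Ackr3-only members of the PHZ-treated spleen had a median outline of 141 µm2 and 11.2 cells within 20 µm, against 72.8 µm2 and 18.6 cells for the Gpihbp1-only members.

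**Figure D4:**
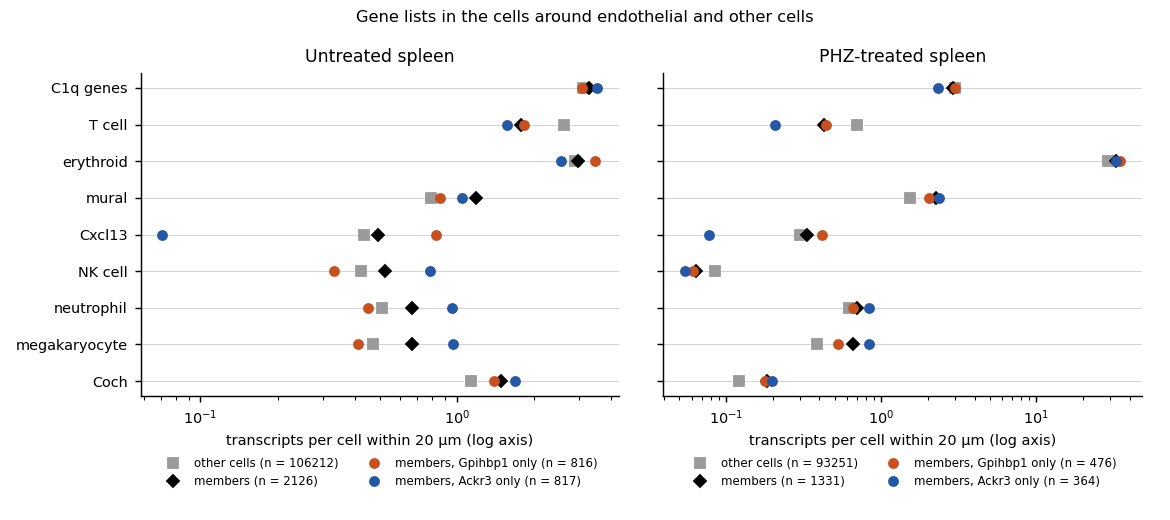
Mean transcripts per neighbouring cell within 20 µm (log axis) of marker genes, around all other cells (grey squares), all members (black diamonds), Gpihbp1-only members (orange) and Ackr3-only members (blue) of each spleen. In the untreated spleen Cxcl13 is at 0.0710 around the blue and 0.830 around the orange members, and NK cell, neutrophil and megakaryocyte genes are higher around the blue ones. The row of C1q genes depends in part on the gate, whose C1q limit left out cells with 7.67 (untreated) and 7.33 (PHZ) such transcripts per neighbouring cell.

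Members inside and outside T-rich surroundings differed in several genes, picked here after their values were seen. In the untreated spleen these 731 cells held 0.327 transcripts per cell of Rgs5, a pericyte gene, against 0.102 in the other members, a ratio of 3.4 (2.75 to 4.21) where other cells had 1.72, each scaled to the total of its cells. Fbln5, an elastic fibre protein, was at 0.772 against 0.427, with a ratio of 1.91 (1.7 to 2.15) and of 0.410 in other cells. Myh11, the myosin of smooth muscle, was at 0.465 against 0.300, a ratio of 1.64 (1.42 to 1.89) and of 0.528 in other cells. Sox17 was at 0.501 against 0.324. Vwf, the clotting factor stored by endothelium, and Mmrn1, which is also found in platelets, were lower there, at 0.144 against 0.370 and 0.0848 against 0.251. Their ratios were 0.411 and 0.358 in the members and 0.326 and 0.336 in other cells. In the PHZ-treated spleen only 60 members had T-rich surroundings, all in 1 section, and the intervals cover counting error only. In other cells of this section, genes with few transcripts in the members also had ratios above 1. Examples are 6.18 for Neurod1, 5.13 for Cubn and 2.64 for Slc5a1, so the ratios of other cells below are not read as enrichment. Fbln5 stood at 2.88 per cell in them against 0.329 in the other members, a ratio of 11.2 (9.32 to 13.4) where other cells had 3.77. Myh11 was at 1.45 against 0.166, a ratio of 11.1 (8.58 to 14.4) and of 2.29 in other cells, and Rgs5 at 1.00 against 0.164, a ratio of 7.76 (5.72 to 10.4) and of 5.62 in other cells. Vwf was here the higher one inside, at 0.817 against 0.623, a ratio of 1.67 (1.23 to 2.23) where other cells had 0.246. Of the other listed mural genes, Des went the other way in PHZ members, at 0.500 against 0.917, a ratio of 0.696 (0.467 to 0.999). Pdgfrb, Tagln and Myl9 had ratios of 2.24, 2.20 and 4.11, and Higd1b and Cnn1 few transcripts. In the untreated members the ratios of Des, Pdgfrb, Tagln and Myl9 were 1.45, 1.13, 1.52 and 1.17.

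Between the spleens, levels in the members were compared as the ratio of CPM (summed counts scaled to the same panel total, PHZ over untreated) for the 201 genes above. Of these, 51 were at least 1.5-fold higher after PHZ (25.4%) and 86 at least 1.5-fold lower (42.8%), and the median gene differed by -0.36 on the log2 scale. In all other cells 23.9% of the same genes were that much higher and 52.2% that much lower, with a median of -0.65. The total itself held many more erythroid transcripts after PHZ: without the erythroid genes in it, 60 genes were higher, 76 were lower and the median was -0.15. Ratios are therefore read here beside those of the other cells. Genes named beyond the largest ratios and the lists of markers were chosen after their values were seen.

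The 13 endothelial genes outside the gate had a median log2 ratio of -0.31 in the members, close to the median of all genes tested, with 2 higher and 5 lower. In other cells 4 of them were higher and 8 lower, with a median of -0.76. The shares over all 201 genes were 25.4% higher and 42.8% lower in the members, and 23.9% and 52.2% in other cells. Cavin2 was at 0.605 transcripts per PHZ member against 1.75 per untreated member (ratio 0.313, 0.290 to 0.338, and 0.257 in other cells), and Calcrl, the receptor for adrenomedullin, at 1.33 against 2.70 (ratio 0.446, and 0.326 in other cells). Eng, a co-receptor for transforming growth factor, was at 4.34 against 3.05, a ratio of 1.29 (1.25 to 1.34), short of the 1.5-fold limit, where other cells had 1.66. Ctla2a, a cysteine protease inhibitor, was at 4.68 (4.56 to 4.79) against 1.19 (1.14 to 1.23), a ratio of 3.58 (3.41 to 3.75) where other cells had 1.09. It was at 6.5 against 1.00 in the Ackr3-only members and at 3.21 against 1.35 in the Gpihbp1-only members. In other cells 4 of the 13 were at least 1.5-fold higher after PHZ: Eng, Cd93, Podxl and Aqp1. Podxl was at 1.03 against 1.09 per member but at 0.645 against 0.0528 per other cell, and Aqp1 at 1.88 against 0.915 per member and 2.50 against 0.156 per other cell.

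Of 7 genes of vessel growth, 2 were at least 1.5-fold higher and 2 lower in the members, with a median log2 ratio of -0.06, while in other cells none were higher, 6 were lower and the median was -1.06. Over all 201 genes, 25.4% were higher and 42.8% lower in the members, and 23.9% and 52.2% in other cells. Angpt2 was found in 7.10% of untreated members (6.05 to 8.28) and 19.2% of PHZ members (17.1 to 21.5), at 0.0884 (0.0762 to 0.102) and 0.355 (0.324 to 0.389) transcripts per cell. Its ratio was 3.64 (3.07 to 4.34), and 4.12 (3.32 to 5.12) from nuclear transcripts, against 0.479 in other cells. Igfbp3 was at 0.968 and 1.71 per member, a ratio of 1.61 (1.51 to 1.7) against 0.427 in other cells. In the Gpihbp1-only members the ratio of Angpt2 was 5.04 (3.84 to 6.67) and in the members with both genes 5.33 (3.29 to 9.17), while in the Ackr3-only members it was 0.498 (0.233 to 0.976) and in those with neither 0.738 (0.418 to 1.25). For Igfbp3 the ratios in these 4 groups, with those holding both genes second, were 1.56 (1.44 to 1.7), 1.51 (1.33 to 1.74), 0.375 (0.266 to 0.519) and 0.531 (0.418 to 0.669). Of the 473 Angpt2 transcripts in PHZ members, 228 lay in the Gpihbp1-only members and 214 in those with both genes, at 0.479 and 0.603 per cell. Bmp2, a growth factor that sinusoidal endothelium releases, was lower, at 0.168 against 0.761 per member, a ratio of 0.200 against 0.165 in other cells and of 0.313 in members with at least 8 counts of the rule genes. Ackr3 itself was at 1.35 against 1.27.

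**Figure D5:**
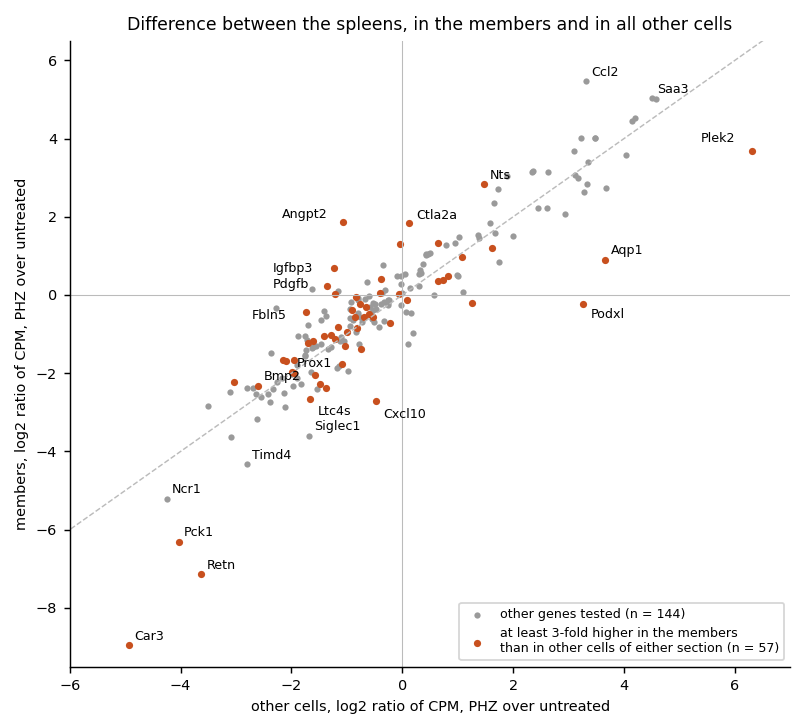
Log2 ratio of CPM, PHZ over untreated, of 201 genes in the members (vertical axis) against all other cells (horizontal axis); the dashed line marks equal ratios. Orange genes were at least 3-fold higher in the members than in other cells of either section; Angpt2 and Igfbp3 lie above 0 in the members and below 0 in other cells, and Cxcl10 lies below the line, at -2.72 in the members.

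Of 7 chemokine and adhesion genes listed, 4 were tested. In the members 1 was higher and 2 were lower, and in other cells 1 was higher and 1 lower. Over all 201 genes, 25.4% were higher and 42.8% lower in the members. Ccl2 had the largest ratio of all genes tested, with 16 transcripts in untreated and 486 in PHZ members: 0.00753 (0.00430 to 0.0122) against 0.365 (0.333 to 0.399) per cell, a ratio of 44.0 (26.8 to 77.6), where other cells had 9.94. It was detected in 0.706% of untreated members (0.395 to 1.16) and 17.5% of PHZ members (15.5 to 19.7). Cxcl10 was at 2.05 (1.99 to 2.11) per untreated member and 0.343 (0.313 to 0.376) per PHZ member, a ratio of 0.152 (0.138 to 0.167), and of 0.151 from nuclear transcripts, against 0.716 in other cells. With no limit on C1q the ratio was 0.266. In the Ackr3-only members its ratio was 0.0785 (0.0659 to 0.0928) and in the Gpihbp1-only members 1.19 (0.934 to 1.5). Cxcl1, Cxcl2 and Ccl7 of this list had too few transcripts to be tested. Their levels per member were higher after PHZ. These are given with no interval and no value in other cells, so no change particular to the members is read. Cxcl1 and Cxcl2, neutrophil-attracting chemokines, were at 0.0188 and 0.00470 per untreated member and at 0.105 and 0.119 per PHZ member. Ccl7 was at 0.00430 per untreated and 0.0448 per PHZ member outside T-rich surroundings. Vcam1, an adhesion molecule, was at 1.01 per untreated and 0.306 per PHZ member, a ratio of 0.274 against 0.439 in other cells.

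Cxcl10 belongs to the interferon-induced genes, a list whose members lay on both sides. Of the 8 listed, all tested, 2 were higher after PHZ in the members and 5 lower, the same counts as in other cells. Over all 201 genes, 25.4% were higher and 42.8% lower in the members. With no limit on C1q 2 were higher and 3 lower, where 63 of all 237 genes tested were higher and 100 lower. Rsad2, an antiviral enzyme, was at 1.42 against 0.162 per member, a ratio of 7.92 (7.06 to 8.91) where other cells had 8.95, and of 5.10 with no limit on C1q. Isg20, an RNA-degrading enzyme, had a ratio of 4.66, and of 2.35 with no limit on C1q. Gbp2 and Gbp5, guanylate-binding proteins, had ratios of 0.691 and 0.645, and Psmb8, an immunoproteasome subunit, 0.483. The 250 bases before the start of Cxcl10 are shown because this gene separates both the kinds of untreated member and the 2 spleens (RefSeq, GRCm38.p6, chr5:92348890-92349139, minus strand, 5′ to 3′). Capitals mark the only match to the spaced interferon-response element GAAANNGAAA, searched on both strands.
Cxcl10: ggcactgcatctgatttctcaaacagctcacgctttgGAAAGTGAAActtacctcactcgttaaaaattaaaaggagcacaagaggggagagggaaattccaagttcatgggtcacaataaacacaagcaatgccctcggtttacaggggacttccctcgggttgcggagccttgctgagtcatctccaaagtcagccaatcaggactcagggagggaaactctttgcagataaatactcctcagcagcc
Of 32851 such upstream windows in the RefSeq table, 2.98% hold this element, and a match is a description of the sequence only.

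Genes of vessel segments gave a mixed picture. Of 4 sinusoidal genes tested, 3 were lower in the members and none higher, where 42.8% of all genes tested were lower. Among the 3, Wnt2 was at 0.0338 per PHZ and 0.126 per untreated member. Oit3, a gene of liver sinusoidal endothelium, was at 0.108 against 0.230, and Dnase1l3, a secreted nuclease, at 0.131 against 0.686. In other cells all 4 were lower, where 52.2% of all genes tested were. Lyve1, also listed, had too few transcripts to be tested. It was at 0.0582 per PHZ and 0.0495 per untreated member outside T-rich surroundings, and at 0.417 and 0.0164 inside. The 5 listed genes together came to 1.39 transcripts per untreated member against 1.65 per other cell, and to 0.666 against 0.673 after PHZ. By gene, however, the median of the 4 tested was 7.11-fold higher per untreated member than per other cell, and 4.84-fold after PHZ. In each section 2 of the 4 were at least 3-fold higher, where 25.4% (untreated) and 21.9% (PHZ) of all 201 genes were. With no limit on C1q the log2 ratio of Dnase1l3 was -1.28 in place of -2.52. Prox1 was detected in 28.4% of untreated members (26.5 to 30.4) and 9.54% of PHZ members (8.02 to 11.2), a ratio of 0.254 (0.212 to 0.304). Both lymphatic genes tested were lower in other cells, with a median log2 ratio of -1.60. Sox17, the single arterial gene tested, was at 0.172 against 0.385, a ratio of 0.406 (0.349 to 0.470). Its log2 ratio was -1.30 in the members and -1.03 in other cells. Vwf was higher, at 0.632 against 0.292, a ratio of 1.96 (1.77 to 2.18) where other cells had 2.10. It was 1.05 with no limit on C1q and 3.15 from nuclear transcripts. Tcf15 and Rbp7, capillary genes of other organs, were near 0, with 9 and 11 transcripts in all untreated members.

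Other large ratios included those of listed markers of other cell types and of cycling cells. All 12 erythroid genes were higher, where 25.4% of all 201 genes were in the members and 23.9% in other cells. Their median log2 ratio was 3.49 in the members and 3.34 in other cells, and their sum was 22.4 against 2.47 transcripts per member and 33.1 against 3.34 per other cell. They include Rhd (ratio 32.3), Hemgn (23.1), Klf1 (21.9), Slc4a1 (16.2) and Car2 (12.9), which encode a blood group antigen, a nuclear factor, the master transcription factor of red cells, the band 3 anion exchanger and a carbonic anhydrase. With no limit on C1q these ratios were 10.8, 8.36, 7.82, 6.53 and 4.94, and the list's median log2 ratio was 2.17. Ctse, an aspartic protease, had a ratio of 16.3 against 11.1 in other cells, and of 7.17 with no limit on C1q. Plek2, a membrane skeleton protein of red cell precursors, had a ratio of 12.9 against 79.0 in other cells. All 4 proliferation genes were higher, in the members and in other cells, where 25.4% and 23.9% of all 201 genes were. In the members they were led by Ube2c, which drives exit from mitosis, with a ratio of 16 against 9.36 in other cells, and of 7.29 with no limit on C1q. Saa3, an acute phase protein, had a ratio of 32.6 in the members and 22.7 in other cells. The part of neighbouring transcripts in these ratios was not tested, and the erythroid sum per PHZ member was 0.678 of that per other cell.

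On the lower side the 3 fat genes had the lowest ratios of all genes tested. Car3, a carbonic anhydrase of fat, was at 2148 transcripts in untreated members and 3 in PHZ members, and 99.1% of the untreated transcripts lay in the 112 members near fat cells. A member with at least 4 transcripts of the fat genes counted as a fat cell itself, so this share is partly fixed by the definition. The ratio of Car3 was 0.00202, and 0.0276 from nuclear transcripts. The untreated section held 446 such fat cells and the PHZ section 2. Retn and Pck1 were at 813 and 4, and 229 and 2 transcripts. Ncr1, an NK cell receptor, had a ratio of 0.0269 in the members and 0.0525 in other cells, and Cxcr5, the homing receptor of follicular B cells, 0.0804 and 0.117. Ncr1 was at 0.0166 with no limit on C1q. Cxcr5 was at 0.130 from nuclear transcripts, at 0.0422 in members with at least 8 counts and at 0.0515 in those with at least 3 rule genes. The macrophage receptors Timd4 and Siglec1 were at 0.0497 and 0.0828 in the members and at 0.142 and 0.309 in other cells. With no limit on C1q their ratios in the members were 0.360 and 0.553, a setting without a matching value for other cells. Hpgd, which degrades prostaglandins, Trf, the iron carrier transferrin, and Coch, an extracellular matrix protein, had ratios of 0.111, 0.138 and 0.140 in the members and 0.162, 0.230 and 0.0881 in other cells. Trf was at 0.353 without members near fat and at 0.234 from nuclear transcripts, settings without a matching value for other cells. With no limit on C1q Hpgd was at 0.184. For the counts that follow, 25.4% of all 201 genes were higher in the members and 42.8% lower. The 4 T cell genes were all lower, with a median log2 ratio of -2.49 in the members and -2.71 in other cells. Of 8 macrophage genes outside the gate, none were higher and 4 were lower in other cells (median -0.90). In the members 1 was higher and 5 were lower (median -1.20). This count depends on the gate, since with no limit on C1q 2 were higher, 4 were lower, the median was -0.60 and the log2 ratio of Marco was 1.19 in place of -1.25. Both NK cell genes tested were lower. Of 6 mural genes, 2 were higher and 1 lower in the members, and 2 higher and none lower in other cells, with medians of 0.10 and 0.04. Of 4 fibroblast genes 1 was higher, the collagen Col1a1 with a ratio of 3.59 against 2.99 in other cells, and 1 was lower, the same counts as in other cells. Among the larger vessel genes 1 of 3 was higher (Vwf), among the lymphatic genes 1 of 2 was lower (Prox1; with no limit on C1q Mmrn1 was too, at a log2 ratio of -1.35 in place of 0.02), among the platelet and megakaryocyte genes 1 of 2 was higher (Ppbp), and among 3 neutrophil genes none passed the limit either way. With no limit on C1q Vwf, Ppbp and the mural gene Myh11 lay within the limit, and 1 larger vessel gene was lower. The 3 mesothelial genes had too few transcripts in the members to be compared.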

How the data were processed

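Sections of formalin-fixed spleen were imaged with the Xenium platform, and the deposited matrices hold raw transcript counts per cell, made by the authors with the instrument software (Xenium Onboard Analysis 1.7.1.0, per the file headers) from molecules with a quality score of at least 20, a score deposited with each molecule. Outlines were drawn by that software around nuclei. Positions, areas and nuclear overlap came from the deposited cell and transcript tables, and counts rebuilt from the latter equalled the matrix. No genome build or aligner applies to these probe counts. The most frequent negative control probe had 77 and 76 counts in the 2 sections.

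Samples were grouped by the labels, 1 section each. Members and the 20 gene lists were chosen with earlier results of these data known. Genes named were list members and the 10 highest and 10 lowest ratios among genes with at least 200 counts over the members of both sections, without the gate's genes. Further genes, such as Nts and Kit and those compared between kinds and surroundings, were chosen after their values were seen. Counts were summed over cells and divided by the panel total (CPM) or by the number of cells. Intervals were exact: Poisson for levels, binomial (Clopper-Pearson) for shares, conditional binomial for ratios. No test was made, since cells are not replicates. Doublets were not called. The calculation of the ratio was run on simulated counts with known folds, which checks the code and not these results. Python 3.11.15, numpy and scipy were used. Alternatives covered the count limit, the C1q limit, nuclear transcripts, thinning, the total, gene filters and fat-adjacent cells.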

Additional observations from a re-analysis of the deposited data

Results flagged for a closer look

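For 2 genes the members and the other cells lay on opposite sides of the 1.5-fold limit between the spleens, and neither difference was tested, with 1 section per condition. Angpt2 had a CPM ratio (PHZ over untreated) of 3.64 in the members and 0.479 in other cells, 7.61 times as high in the members. Most Angpt2 transcripts lay outside the gate, with 4401 untreated and 2352 PHZ transcripts in other cells against 188 and 473 in the members. Igfbp3 had ratios of 1.61 and 0.427, 3.76 times as high in the members, with 41853 and 19942 transcripts in other cells against 2059 and 2282 in the members.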

How the results depend on the processing

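The share of cells in the gate stayed higher in the untreated section under all 7 alternatives. It was 2.88% in the untreated and 2.13% in the PHZ section with at least 3 counts of the rule genes, 0.559% and 0.399% with at least 8, 3.24% and 2.27% with no limit on C1q, 1.59% and 0.897% from transcripts over the nucleus, and 0.890% and 0.539% after thinning to 50 transcripts. A filter on detected genes and leaving out cells near fat kept it within its interval. The count of genes lower after PHZ was 44 in members with at least 8 counts, where 128 genes passed the filter in place of 201. The other settings kept both counts within 1.5 times. The share of members with T-rich surroundings was 85.6% and 11.7% with a limit of 10% T cells, and 3.45% in PHZ members with at least 8 counts. Of the cells within 30 µm of a member 3.89% and 3.0% were members, and with at least 8 counts of the rule genes 1.69% and 1.66% within 20 µm. At that limit members were only 0.559% and 0.399% of all cells. The effect on single genes was followed for 107 genes only, so not for all of the 51 higher and 86 lower ones. Of the 107, 79 were past the 1.5-fold limit, and 658 values of theirs under 9 settings were compared. Among the 658 values 2 changed sign, both with no limit on C1q, a setting chosen after seeing the data: the log2 ratio of Marco was 1.19 in place of -1.25 and that of Cxcl13 0.58 in place of -0.87, and the cause was not tested. Another 34 values changed sign in 14 genes within the limit, Podxl and Cd36 among them, and Mmrn1, whose log2 ratio was -1.35 in place of 0.02 with no limit on C1q. In 21 of the 658 values the gene came to lie within the limit: with no limit on C1q these were Vwf at a ratio of 1.05, Ppbp at 1.2, Myh11 at 0.710, Cd274 at 0.951, Gbp5 at 0.760 and Cxcl13, and Gbp5 also left it under 3 ways of setting the total. Aqp1 was at 1.27 in members with at least 8 counts. In 48 of the 658 the ratio moved by over 1.5 times, 31 of them with no limit on C1q, where erythroid genes had smaller ratios (Epor 2.68, against 11.3 from nuclear transcripts and 7.12 as reported), as had Rsad2 and Isg20. Retn was at 0.0043 there and at 0.00358 with at least 3 rule genes in place of 0.00713, and Timd4 at 0.0258 with at least 3 rule genes. Marco was at 0.672 with at least 8 counts. No paired analysis was possible because each condition is 1 section and the result comes from no test. Genes with few transcripts in the members are limited by depth.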

Other observations

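Kit, the receptor for stem cell factor, was at 0.304 transcripts per untreated member (0.281 to 0.329) and 0.833 per PHZ member (0.785 to 0.884), a CPM ratio of 2.48 (2.25 to 2.74) and of 3.21 (2.84 to 3.63) from nuclear transcripts, where other cells had 0.966. Nts was at 0.0202 and 0.159 per member, a ratio of 7.14 (5.13 to 10.2) against 2.79 in other cells. Ppbp, a platelet chemokine, was at 0.477 and 0.898 per member, a ratio of 1.71 against 0.786 in other cells, and of 1.2 with no limit on C1q.

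The cells left out for their C1q transcripts differed from the members in their surroundings in the untreated spleen, where 19.0% of them had T-rich surroundings (17.0 to 21.2), against 34.4% of the members, and their neighbours within 20 µm held 7.96 erythroid and 7.67 C1q transcripts per cell, against 2.97 and 3.28 around the members. After PHZ the T-rich shares were close, at 4.18% of the cells left out (2.91 to 5.79) and 4.51% of the members, while neighbours of the cells left out held 7.33 C1q, 1.24 Cxcl13 and 22.2 erythroid transcripts per cell, against 2.91, 0.333 and 32.8 around the members.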
